A study of Mus musculus with 4 samples.

Results

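The F1 subunits of the mitochondrial ATP synthase were followed in ribosome footprints and RNA of leukaemia stem cells. The 5 genes were taken by symbol from the deposited table of 16442 genes, which lists them as Atp5a1 (alpha), Atp5b (beta), Atp5c1 (gamma), Atp5d (delta) and Atp5e (epsilon). All 5 were found, and all 5 passed the filter on low footprint values that left 6387 genes for testing. In outline, Atp5b had more footprints and less RNA in the libraries labelled as Rreb1 knockouts than in WT, whereas Atp5e had fewer footprints and more RNA. The RNA differences of Atp5b, Atp5d and Atp5e passed the test, as did those of 60.7% of all tested genes, and 0 of the 5 footprint differences passed, against 1.03% of all tested genes.

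ATP synthase uses the proton gradient of the inner mitochondrial membrane to make ATP from ADP and phosphate. Its F1 part faces the mitochondrial matrix: alpha and beta subunits alternate in a ring that holds the catalytic sites on beta, and gamma, delta and epsilon form the central stalk that turns inside that ring. All of these subunits are encoded in the nucleus, translated on cytosolic ribosomes and imported, and the ring holds several copies of alpha and beta for each copy of a stalk subunit.

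The promoters of Atp5b and Atp5e are printed because these genes differed most within F1, with the letters of the motif matches in capitals. They are the 250 bases before the annotated start, from RefSeq on GRCm38.p6, at chr10:128083057-128083306 on the plus strand for Atp5b and at chr2:174464102-174464351 on the minus strand for Atp5e. The windows were chosen after the values had been seen, and the motifs after the F1 promoters had been read.
Atp5b: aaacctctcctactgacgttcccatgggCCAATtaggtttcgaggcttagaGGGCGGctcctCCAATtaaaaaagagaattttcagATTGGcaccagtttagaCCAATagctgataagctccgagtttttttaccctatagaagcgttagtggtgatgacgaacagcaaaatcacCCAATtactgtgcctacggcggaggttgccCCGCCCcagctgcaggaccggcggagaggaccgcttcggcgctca
Atp5e: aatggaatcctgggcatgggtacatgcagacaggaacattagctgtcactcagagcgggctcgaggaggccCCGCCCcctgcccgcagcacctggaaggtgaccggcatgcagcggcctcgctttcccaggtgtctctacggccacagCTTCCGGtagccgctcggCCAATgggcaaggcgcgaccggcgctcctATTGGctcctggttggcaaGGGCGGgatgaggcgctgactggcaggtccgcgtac

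Both strands were searched for the NRF-1 motif (GCGCA and GCGC with any base between them), CCGGAAG (the core of the ETS family, to which NRF-2 belongs), CCAAT and GGGCGG (GC box), and no match overlapped another. Atp5b held 5 CCAAT matches, the nearest lying 70 bases from the start, and 2 GC boxes. Of 32851 promoter windows of the same length, 33.9% held any CCAAT and 0.213% held at least as many as Atp5b. Atp5e held 1 CCGGAAG match, found in 6.91% of windows, 2 CCAAT matches, a number reached by 10.1%, and 2 GC boxes. At least 1 GC box was present in 32.7% of windows and at least 2 in 16.7%. Atp5c1 had an NRF-1 match before the second of its 2 annotated starts, as did 3.74% of windows, and 1 CCAAT match before either start. Atp5d had no match to these 4 motifs before either start, and the promoter of Atp5a1 is not reported here. The GC content of the printed windows was 51.6% for Atp5b and 65.6% for Atp5e, against a mean of 53.2% over all windows. A match describes the letters and is not a site of binding.

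The cells came from the bone marrow of C57BL/6 mice with leukemia, either WT or of the genotype Rreb1-KO, and each group had 2 libraries. Micrococcal nuclease (10 µg/ml, 30 min) was used to trim mRNA in the lysates down to the stretches held by ribosomes, fragments of 25 to 40 nucleotides were sequenced, and RNA of undigested lysate served as input. The replicates are biological according to the series, but the sources used here do not name the animals, the way the leukaemia was induced or the part of Rreb1 that was removed, and p-values cover only the spread among these 4 libraries. For KO replicate 2 the labels give the genotype as Rreb2-KO; its title placed it in the KO group.

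Footprint depth was uneven, from 656249 to 878068 assigned reads in WT and from 274183 to 364087 in KO, while input depth ranged only from 17037493 to 19121998. Rreb1 footprints were 14.1 and 12.8 RPKM (reads per kilobase, scaled to the assigned reads of the library) in WT against 12.9 and 8.19 in KO, and Rreb1 RNA was higher in KO, at 6.10 and 6.93 against 3.33 and 3.25 RPKM. The labels were therefore not borne out by a loss of Rreb1 reads, and the second group is called KO-labelled. Of 9 stem and progenitor markers, 8 in WT and all 9 in the KO-labelled libraries reached an RNA level of 1 RPKM in both replicates. Their summed RNA was 434 to 445 RPKM in WT and 472 to 492 in the KO-labelled libraries, but the single markers went different ways. Cd34 was at 4.41 and 4.71 RPKM against 50.5 and 49.8, Flt3 at 2.54 and 2.99 against 19.5 and 17.7, and Kit at 1.97 and 2.32 against 7.36 and 7.15. Ly6a and Myb also lay above WT in both KO-labelled libraries. Below WT lay Spi1, at 330 and 318 RPKM against 302 and 285, Meis1, at 12.5 and 12.1 against 11.9 and 11.5, and Ptprc. For Hoxa9 the groups overlapped. Summed RNA of 7 myeloid differentiation markers was 18410 to 18890 RPKM in WT and 8787 to 9512 in the KO-labelled libraries. That of 4 mast and basophil markers was 27.6 to 30.8 against 284 to 293, that of 3 erythroid markers 35.2 to 41.8 against 197 to 242, that of 3 stroma and endothelium markers 11.7 to 12.0 against 72.2 to 79.6, that of 2 megakaryocyte markers 0.806 to 1.15 against 20.3 to 21.3, and that of 3 T cell markers 1.45 to 1.88 against 5.24 to 5.31. The part of these marker differences in the results below was not tested, and in such bulk libraries fewer cells of a type and less RNA per cell cannot be told apart.

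Among the ring subunits, Atp5b, which carries the catalytic sites, had footprints of 582 and 674 RPKM in WT replicates 1 and 2 and of 1270 and 910 RPKM in the corresponding KO libraries. The reads behind these levels were 811 and 702 in WT, 734 in KO replicate 1 and 396 in KO replicate 2. Both KO-labelled libraries lay above both WT libraries, as for 20.4% of all tested genes, and the KO replicate 1 value was the highest of any F1 subunit in any library. The log2 difference in footprints was 0.78 ± 0.30 (SE over 2 libraries per group, 95% interval -0.0015 to 1.56) with a limma adjusted p of 0.276 and an unadjusted limma p of 0.0503, which missed the threshold of 0.05. The SE of this and all later log2 differences was moderated by limma, which also draws on the spread of the other tested genes. Over all tested genes the median footprint difference was -0.134, and 87.4% of genes had a lower difference than Atp5b.

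Atp5a1, the noncatalytic partner of beta in the ring, had footprints of 769 and 903 RPKM in WT and 899 and 1143 RPKM in the KO-labelled libraries. The groups overlapped, and the log2 difference was 0.28 ± 0.28 (SE over 2 libraries per group, limma adjusted p = 0.634), or 0.11 when KO replicate 2 was left out and 0.456 when KO replicate 1 was. The footprints of Atp5b relative to those of Atp5a1 were nearly equal in 3 libraries, at 0.757 and 0.747 in WT and 0.796 in KO replicate 2, and stood at 1.41 in KO replicate 1. The higher Atp5b to Atp5a1 ratio in footprints thus rested on KO replicate 1.

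In the central stalk, Atp5e, the smallest subunit, had footprints of 774 and 1153 RPKM in WT against 440 and 725 RPKM in the KO-labelled libraries. Both KO-labelled values lay below both WT values, as for 32.1% of all tested genes, but by a narrow gap between WT replicate 1 and KO replicate 2. With a coding length of 156 bases these levels came from few reads, 106 and 118 in WT and 25 and 31 in the KO-labelled libraries. Counting error alone put the KO replicate 2 level between 492 and 1029 RPKM and the WT replicate 1 level between 634 and 936 RPKM (exact Poisson 95% intervals), so these libraries did not differ beyond counting. The log2 difference in footprints was -0.74 ± 0.39 (SE over 2 libraries per group, limma adjusted p = 0.394).

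Atp5c1, the rotating gamma shaft, had footprints of 235 and 313 RPKM in WT and 132 and 273 RPKM in the KO-labelled libraries, and Atp5d, the delta subunit at its foot, 203 and 387 against 185 and 297 RPKM. The groups overlapped for both genes, and replicates of the same group lay up to 2.07-fold apart for Atp5c1 and 1.90-fold for Atp5d. The log2 differences were -0.51 ± 0.44 for Atp5c1 and -0.26 ± 0.45 for Atp5d (SE over 2 libraries per group, limma adjusted p = 0.581 and 0.793). When KO replicate 1 was left out that of Atp5c1 was 0.0077 and that of Atp5d 0.08, and without WT replicate 2 that of Atp5d was 0.205, so neither direction held in all libraries. The 95% intervals, -1.67 to 0.64 for Atp5c1 and -1.43 to 0.91 for Atp5d, leave room for differences of either sign.

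**Figure D1:**
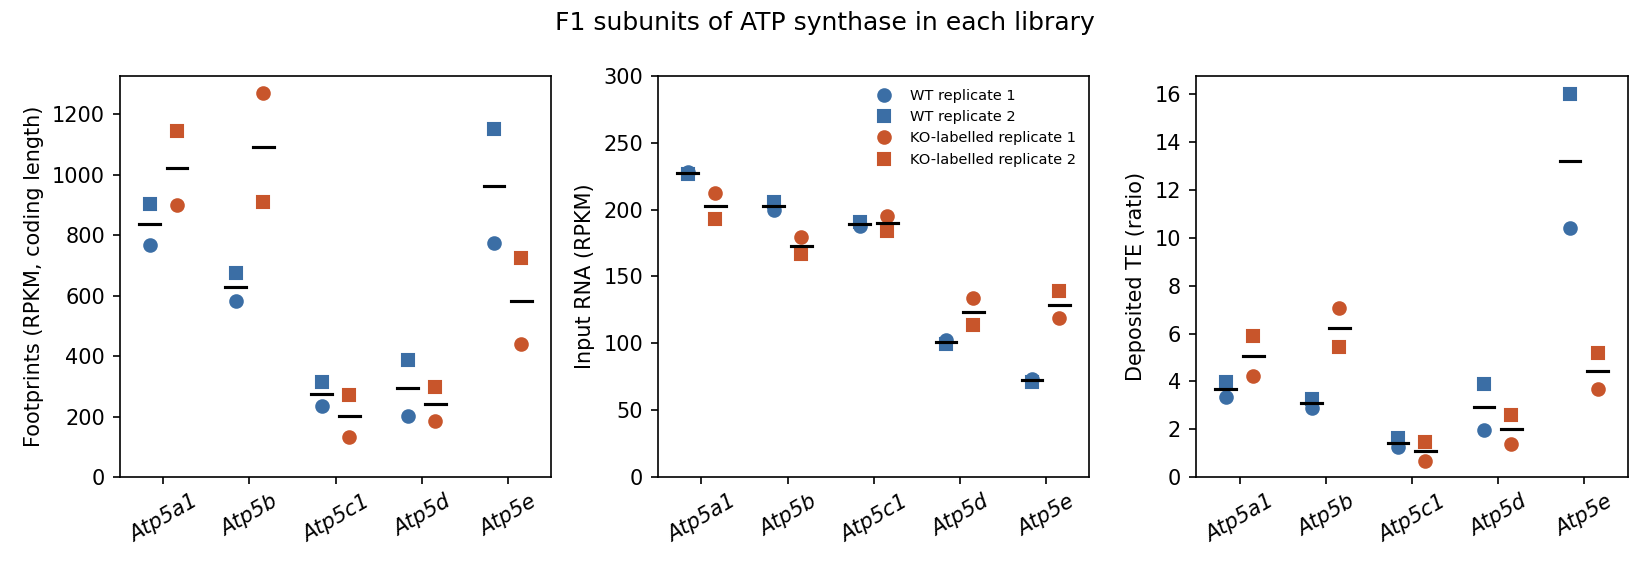
Footprints (RPKM of coding length), input RNA (RPKM) and deposited translational efficiency (TE, a ratio) of the 5 F1 genes; each point is a library (circles replicate 1, squares replicate 2; blue WT, orange KO-labelled) and each line the mean of 2. In footprints Atp5b lies higher and Atp5e lower in the KO-labelled libraries, with RNA the other way round.

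Across the family, 0 of 5 F1 genes passed limma in footprints at the adjusted threshold and 0 at an unadjusted p under 0.05, against 1.03% and 18.2% of all tested genes. The unadjusted count depended on the setting: it was 3 (Atp5b, Atp5c1 and Atp5e) without KO replicate 2, where 37% of all genes reached it, and 1 with libraries centred on the median (Atp5b, limma adjusted p = 0.237). For Atp5a1, Atp5c1 and Atp5d the groups overlapped. The median footprint difference over F1 was -0.258.

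The order of the footprint levels, given per coding length, differed between groups. In WT it was Atp5e, Atp5a1, Atp5b and then Atp5d and Atp5c1, with means of 963 ± 268, 836 ± 94.8, 628 ± 65.1, 295 ± 130 and 274 ± 55.1 RPKM (SD, n = 2). In the KO-labelled libraries it was Atp5b, Atp5a1, Atp5e, Atp5d and Atp5c1, with means of 1090 ± 255, 1021 ± 173, 582 ± 201, 241 ± 78.8 and 202 ± 99.8 RPKM (SD, n = 2). Atp5e and Atp5a1 in WT, Atp5b and Atp5a1 in the KO-labelled group, and Atp5d and Atp5c1 in either group did not differ beyond this spread. The place of Atp5e in WT rested on 106 and 118 reads over 156 coding bases, and the part of coding length in these orders was not tested. The gap between the 3 higher and the 2 lower subunits was present in every library. The ratio of Atp5b to Atp5e footprints within a library was 0.752 and 0.585 in WT and 2.89 and 1.26 in the KO-labelled libraries, 1.52 apart on the log2 scale, and the groups did not overlap. An exact two-sided permutation test over 4 libraries gave p = 0.333, the smallest this design allows. This pair was not the planned ratio and joins the genes that differed most within F1, so the test adds no support. The planned ratio set each subunit against the mean of the others. In footprints it likewise separated the groups for each subunit (exact permutation p = 0.333) except Atp5d (0.667). All 5 F1 genes had mean footprint levels above those of 92.2% to 98.7% of tested genes. Their mean RNA levels were likewise above those of 91.9% to 97.2%.

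Summed over the 5 genes, F1 took 0.263% and 0.322% of all assigned footprint reads in WT and 0.379% and 0.385% in the KO-labelled libraries. The Wilson 95% intervals, which cover counting error only, were 0.253 to 0.274 and 0.309 to 0.336 in WT and 0.359 to 0.399 and 0.362 to 0.409 in the KO-labelled libraries. Without Atp5b the shares were 0.171% and 0.215% in WT and 0.177% and 0.240% in the KO-labelled libraries, and the groups overlapped. The summed share of input reads moved little, at 0.225% and 0.226% in WT and 0.226% and 0.212% in the KO-labelled libraries.

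RNA levels, taken as the deposited footprint value over the deposited TE, were tight between replicates, within 1.18-fold for each F1 gene. Atp5e RNA stood at 73.4 and 71.1 RPKM in WT and rose to 119 and 139 RPKM in the KO-labelled libraries, both above WT (44.4% of all tested genes), a log2 difference of 0.82 ± 0.09 (SE over 2 libraries per group, limma adjusted p = 0.000184). It thus went the other way from the Atp5e footprints. Of all tested genes, 93.3% had a lower RNA difference.

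Atp5d RNA was 102 and 99.2 RPKM in WT and rose to 134 and 113 RPKM, by a log2 difference of 0.29 ± 0.09 (SE over 2 libraries per group, limma adjusted p = 0.0246). Atp5b RNA was 200 and 206 RPKM in WT and fell to 179 and 167 RPKM, by a log2 difference of -0.23 ± 0.07 (SE over 2 libraries per group, limma adjusted p = 0.023). Both changes were small, and that of Atp5d was 0.169 without KO replicate 1. Neither passed without the filter on low genes (limma adjusted p = 0.0532 for Atp5b and 0.099 for Atp5d), nor without WT replicate 1 (0.145 and 0.0997) or WT replicate 2 (0.226 and 0.152).

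Atp5a1 RNA was 228 and 227 RPKM in WT and 212 and 193 RPKM in the KO-labelled libraries. Both KO-labelled values lay below WT (37.6% of all tested genes), and the log2 difference was -0.17 ± 0.07 (SE over 2 libraries per group, limma adjusted p = 0.0824). Without KO replicate 1 it passed, at a limma adjusted p of 0.00733. Atp5c1 RNA was 188 and 191 RPKM against 195 and 184 RPKM, with a log2 difference of 0.0013 ± 0.07 and a 95% interval of -0.16 to 0.16 (limma adjusted p = 0.989).

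In RNA, 3 of 5 F1 genes passed limma, 2 higher and 1 lower, against 60.7% of all tested genes, 33.1% higher and 27.7% lower. The F1 share of calls was therefore no larger than that of all genes. The KO-labelled libraries lay wholly above WT for Atp5d and Atp5e, as for 44.4% of all tested genes. They lay wholly below for Atp5a1 and Atp5b, as for 37.6%, so most tested genes were likewise separated in RNA. By direction, the 2 ring subunits lay below WT, though Atp5a1 did not pass. Of the 3 stalk subunits 2 rose, while for Atp5c1 the groups overlapped.

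The order of RNA levels in WT was Atp5a1, Atp5b, Atp5c1, Atp5d and Atp5e, with means of 227 ± 0.80, 203 ± 4.24, 189 ± 1.96, 101 ± 2.09 and 72.2 ± 1.62 RPKM, and all neighbours were further apart than their SD (n = 2). In the KO-labelled libraries the levels drew closer, from 203 ± 13.6 for Atp5a1 through 190 ± 8.06 for Atp5c1, 173 ± 8.71 for Atp5b and 129 ± 14.2 for Atp5e to 123 ± 14.3 for Atp5d (SD, n = 2), where Atp5e and Atp5d, and Atp5a1 and Atp5c1, did not differ beyond this spread. The highest F1 RNA was 3.11 and 3.19 times the lowest in WT and 1.79 and 1.70 times in the KO-labelled libraries. The ratio of Atp5b to Atp5e RNA was 2.72 and 2.90 in WT and 1.51 and 1.20 in the KO-labelled libraries, a log2 difference of -1.06 (exact two-sided permutation p = 0.333, the smallest possible). This pair was again not the planned ratio. Set against the mean of the others, every F1 subunit likewise separated the groups in RNA. The order and the spans between genes rest on RNA lengths inferred from the values, 3135 bases for Atp5a1 and 4237 for Atp5b. Before division by length, Atp5b had more input reads than Atp5a1 in every library, such as 16197 against 13661 in WT replicate 1.

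Translational efficiency, the footprint level over the RNA level of the same library, combined these differences. For Atp5e the deposited TE was 10.4 and 16 in WT and 3.69 and 5.19 in the KO-labelled libraries, both below WT (32.3% of all tested genes). The log2 difference was -1.56 ± 0.39 (SE over 2 libraries per group, 95% interval -2.58 to -0.54), with an unadjusted limma p of 0.0111 and a limma adjusted p of 0.298. Only 4.74% of tested genes had a lower TE difference.

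For Atp5b the TE was 2.90 and 3.26 in WT and 7.06 and 5.43 in the KO-labelled libraries, both above WT (15.6% of all tested genes). The log2 difference was 1.01 ± 0.33 (SE over 2 libraries per group, 95% interval 0.16 to 1.86), with an unadjusted limma p of 0.0289 and a limma adjusted p of 0.339, above that of 93.4% of tested genes. Atp5a1 had a TE of 3.36 and 3.97 against 4.22 and 5.90, also without overlap, and differed by 0.45 ± 0.35 log2 units (SE, limma adjusted p = 0.612). Without KO replicate 2 that of Atp5a1 was 0.208, and without KO replicate 1 it was 0.691. Both ring subunits thus had higher TE values in the KO-labelled libraries, without passing the test.

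Atp5c1 had a TE of 1.25 and 1.64 in WT and 0.677 and 1.48 in the KO-labelled libraries. Atp5d had 1.98 and 3.87 against 1.38 and 2.60. For both the groups overlapped, and the limma adjusted p was 0.683 for Atp5c1 (log2 difference -0.52 ± 0.50, SE) and 0.68 for Atp5d (-0.54 ± 0.52, SE). Leaving out WT replicate 2 or WT replicate 1 put the Atp5d difference at -0.0612 or -1.03, and leaving out KO replicate 1 or KO replicate 2 put that of Atp5c1 at 0.0495 or -1.08.

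In TE, 0 of 5 F1 genes passed limma at the adjusted threshold, as did 0% of all tested genes. At an unadjusted p under 0.05 there were 2, Atp5b higher and Atp5e lower, against 13% of all tested genes (3.02% higher and 9.97% lower). Of these, Atp5e alone reached it when WT replicate 1 was left out, and neither gene did when WT replicate 2 was. With an interaction term in a single limma fit over the 4 footprint and 4 RNA profiles, 79 of the 6387 genes passed and no F1 gene was among them (limma adjusted p = 0.131 for Atp5e and 0.14 for Atp5b). The authors' deposited table gives a p of 0.0316 for Atp5b, 0.0469 for Atp5e and 0.129, 0.250 and 0.247 for Atp5a1, Atp5c1 and Atp5d. That column is headed as adjusted, but for 16250 of 16250 genes it lay within 1e-06 of a one-sided unadjusted equal-variance test on TE.

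**Figure D2:**
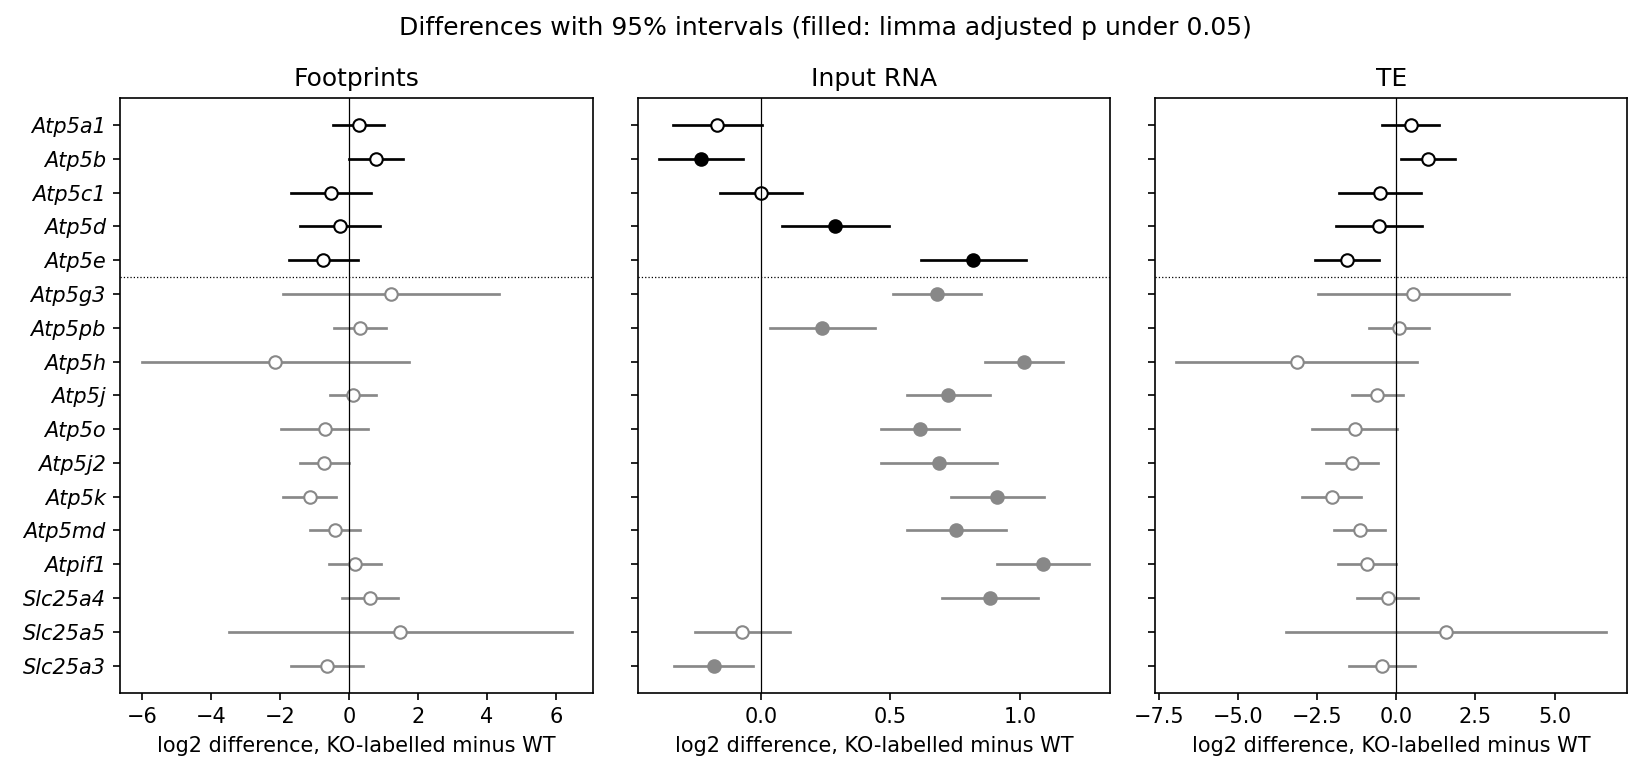
The log2 difference (KO-labelled minus WT) in footprints, input RNA and TE with limma 95% intervals, for the 5 F1 genes (black) and 12 other tested ATP synthase genes (grey); filled points have a limma adjusted p under 0.05. Filled points appear only in RNA, for 3 F1 genes and 11 others, and the horizontal scales differ between panels.

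The 5 genes differ in coding length, and footprint differences ran with coding length over all tested genes. The median log2 difference in footprints was -0.741 over 25 genes of up to 200 coding bases, -0.766 over 87 genes of 200 to 300, -0.497 over 536 genes of 300 to 600, -0.317 over 1036 genes of 600 to 1000, -0.122 over 2359 genes of 1000 to 2000 and 0.016 over 2344 longer genes. Atp5e, with 156 coding bases and a difference of -0.74, is among the 25 genes of its length bin and was itself the middle gene that gave the median. Atp5d (504 bases, -0.26) and Atp5c1 (895 bases, -0.51) lay above and below the medians of theirs, and Atp5a1 (1659 bases, 0.28) and Atp5b (1587 bases, 0.78) above. In TE the medians of the shortest bin and of the bin from 1000 to 2000 bases were -1.23 and -0.09, against -1.56 for Atp5e and 1.01 for Atp5b. In RNA they were 0.663 and -0.034, against 0.82 for Atp5e and -0.23 for Atp5b. The bins were set after the data had been seen, and the part of coding length in the F1 differences was not tested.

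**Figure D3:**
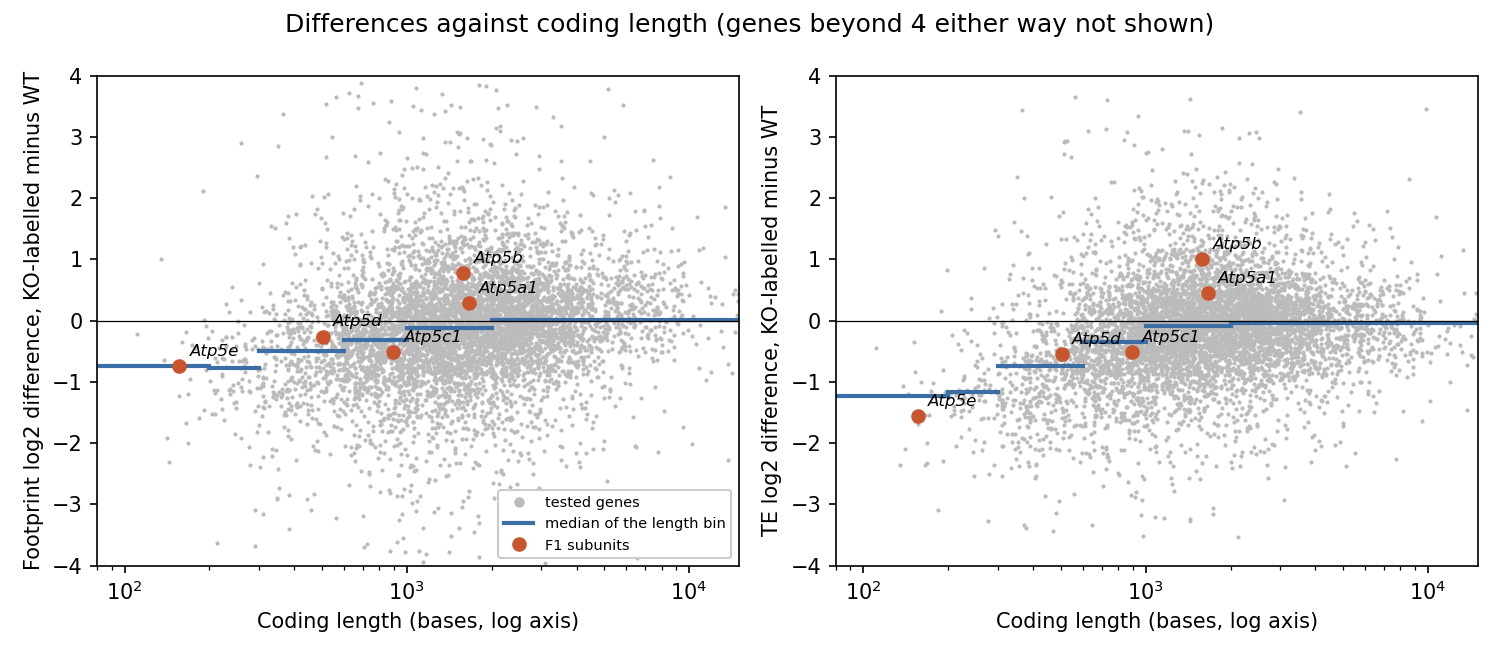
Log2 difference (KO-labelled minus WT) in footprints (left) and TE (right) against coding length in bases on a log axis; grey points are tested genes (75 and 14 genes beyond 4 either way not shown), blue bars the medians of length bins and orange points the F1 genes. In footprints Atp5e is itself the middle gene of its bin and so lies on the median, while Atp5b and Atp5a1 lie above theirs.

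Lengths also entered the comparison of TE between subunits, because the deposited footprints behaved as scaled to coding bases and the RNA as scaled to longer gene models. This scaling was inferred from the values. Of the inferred coding lengths 67.7% were a multiple of 3 bases, and that of Atp5c1 was not. The lengths implied by the values were 1659 and 3135 bases for Atp5a1, 1587 and 4237 for Atp5b, 895 and 1908 for Atp5c1, 504 and 1928 for Atp5d, and 156 and 1756 for Atp5e. The RNA length of Atp5e was 11.3 times its coding length, a ratio above that of 98.1% of 6334 genes, whose median was 2.78. When TE was instead taken as the share of footprint reads over the share of input reads, a measure added after the data had been seen, Atp5e no longer stood highest in WT. Its mean was 1.19 ± 0.356 there, against 1.95 ± 0.228 for Atp5a1 and 1.16 ± 0.096 for Atp5b, and in the KO-labelled libraries 0.397 ± 0.095 against 2.69 ± 0.632 and 2.35 ± 0.433 (SD, n = 2). The deposited means had been 13.2 ± 3.95 for Atp5e, 3.67 ± 0.428 for Atp5a1 and 3.08 ± 0.255 for Atp5b in WT. Differences between groups within a gene do not depend on these lengths, apart from the 1 added to each deposited value.

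**Figure D4:**
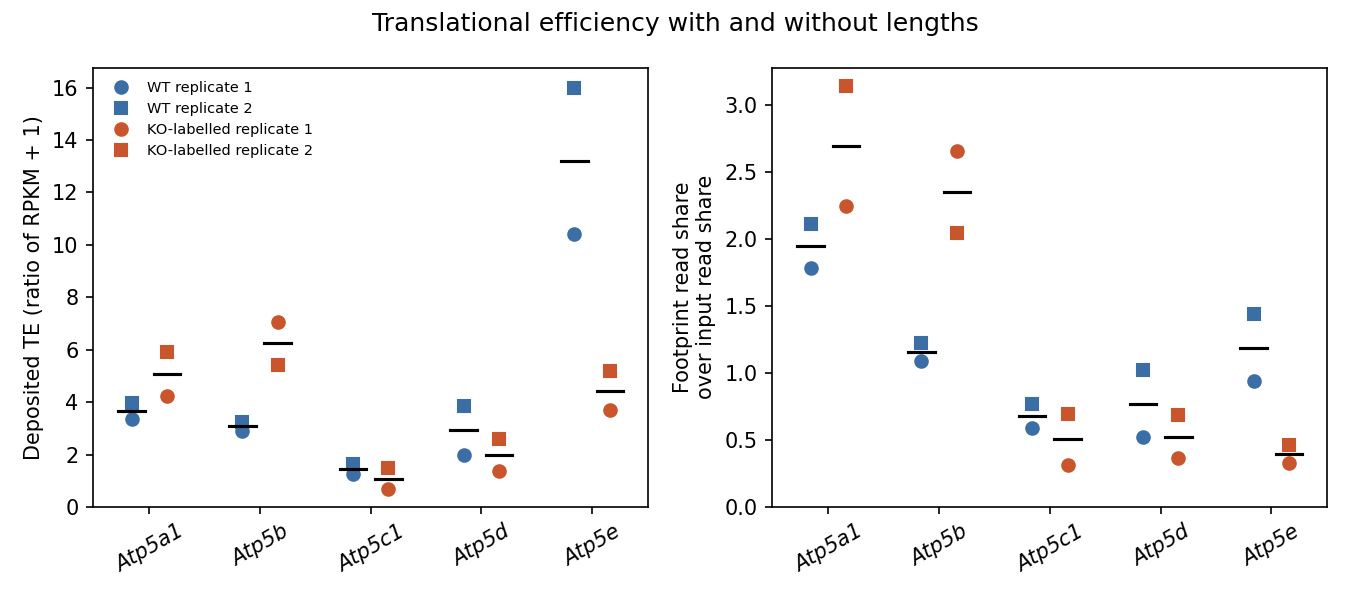
TE of the 5 F1 genes per library (circles replicate 1, squares replicate 2, lines the mean of 2; blue WT, orange KO-labelled) as deposited, a ratio of RPKM + 1 values (left), and as share of footprint reads over share of input reads (right). Atp5e has the highest deposited TE in WT, whereas by read shares Atp5a1 has the highest values there.

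Of 25 other genes of the ATP synthase, its assembly and its carriers, 12 passed the filter. The median of their log2 differences was -0.134 for footprints, 0.706 for RNA and -0.762 for TE, against -0.258, 0.0013 and -0.515 over F1. In RNA 10 rose and 1 fell, Slc25a3, the phosphate carrier (-0.18, limma adjusted p = 0.0441), against 33.1% and 27.7% of all tested genes. All 7 tested genes of the peripheral stalk and membrane part rose in RNA, from 0.24 for Atp5pb, the b subunit of the stalk, to 1.02 for Atp5h, the d subunit (log2 differences). Between them lay Atp5j (0.72), Atp5o (0.61), Atp5j2 (0.69), Atp5k (0.91) and Atp5md (0.75). RNA of Atp5g3, which encodes the proton-carrying c subunit of the membrane rotor, rose by 0.68, that of Atpif1, which inhibits ATP hydrolysis by F1, by 1.09, and that of Slc25a4, an ADP/ATP carrier, by 0.88 on the log2 scale. Atp5e, at 0.82, had an RNA difference within the range of these genes, while Atp5b, at -0.23, lay below all 12.

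In footprints 0 of the 12 passed limma, and 1 was lower at an unadjusted p under 0.05: Atp5k, the e subunit, at 642 and 887 RPKM in WT and 361 and 325 RPKM in the KO-labelled libraries (log2 difference -1.14 ± 0.29, SE, limma adjusted p = 0.169), where 12.4% of all tested genes were lower by the same measure. In TE 0 passed and 4 were lower at an unadjusted p under 0.05, which were Atp5j2, Atp5k, Atp5md and Atpif1, against 9.97% of all tested genes. Their coding lengths are short, at 394, 213, 174 and 318 bases. Of 112 tested genes of up to 300 coding bases, 59 were lower in TE and 42 in footprints by the same measure. The part of coding length in these differences was not tested. Single libraries set the values of several others of the 12. Atp5g3 footprints were 385 and 393 RPKM in WT and 3175 and 259 in the KO-labelled libraries, Atp5h footprints 778 and 34.7 against 45.5 and 30.2, and those of Slc25a5, a further ADP/ATP carrier, 149 and 23.9 against 27.7 and 1028. No F1 gene showed a gap of this size between replicates. Atp5g1, Atp5g2 and Atp5g3 encode the same mature c subunit, and Slc25a4 and Slc25a5 are close relatives; how reads shared by such genes were counted is not stated, and its part in these values was not tested. Atp5g1 and Atp5g2 had footprints only in KO replicate 2, at 17.9 and 8.31 RPKM, and the mitochondrially encoded mt-Atp6 and mt-Atp8 were listed at 0 footprints in all 4 libraries.

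The genes whose pattern was most like that of each subunit were found by Euclidean distance between gene-centred log2 profiles over 8 values, 4 of footprints and 4 of RNA. Nearest to Atp5a1 were Drg1, Psmd5 and Gsdmd, with Drg1 at a distance of 0.142, and nearest to Atp5b were Riok3, Lrrc59 and Smarcb1, with Riok3 at 0.208. Nearest to Atp5c1 were Cdk5rap3, Irf3 and Nubp2 (Cdk5rap3 at 0.127), to Atp5d Pms2, Ssna1 and Eefsec (Pms2 at 0.243), and to Atp5e Dgka, Smdt1 and Gpr183 (Dgka at 0.291). The median distance to all tested genes was between 1.09 and 1.48, and no F1 gene was among the 3 nearest of another. Within F1 the closest pair was Atp5c1 and Atp5d, at 0.60, and the farthest was Atp5b and Atp5e, at 2.06, beyond the median distance of 1.48 between Atp5e and all genes. Footprint and RNA values share library and depth, so these distances are a description.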

How the data were processed

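Per the file headers, the authors deposited 1 table of footprint values, TE values and p-values by gene. The deposited footprint values behaved as RPKM with 1 added, and the deposited TE as a ratio of such values for footprints and input RNA; both units were read from the values, since no label states them. The submitters' processing notes name HISAT2 2.1.0, featureCounts, CASAVA and DESeq2 without their roles, and hg38, a human build although the symbols are mouse; the sources used here name no annotation.

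Whole reads were read back from the steps of the RPKM values within 0.002 reads, for 10536 of 10536 genes with footprints in at least 2 libraries and 15984 of 15988 with input. For some genes with high RNA the inferred length and reads came out as too large multiples. Genes with a missing or very long inferred RNA length were therefore left out of the limma-voom fits on input reads, leaving 6334. That cut was on length alone, so it can keep some multiples and drop genes with truly long models. The length ratios used the same 6334 genes. Intervals at 95% on reads cover counting error only.

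As the values were RPKM, the planned limma fit was used (version 3.58.1 in R 4.3.3, trend in eBayes, group as sole term, 4 libraries) on log2(RPKM + 1), a scale that understates changes of low genes. Its two-sided p-values were adjusted by Benjamini-Hochberg over 6387 genes, those reaching a CPM of 20 from recovered reads in 2 or more libraries, with a threshold of 0.05. TE was fitted as log2 footprint minus log2 RNA per library. Fits and recovery were tested on simulated data.

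The F1 members, gene lists and tests were chosen with earlier results of these data known. Named genes were the 5 F1 genes, other ATP synthase genes that passed a test or were highest or lowest in their role, the 3 nearest genes of each member, and Rreb1. Atp5j2, Atp5k, Atp5md, Atpif1, Atp5g1, Atp5g2, Slc25a5, mt-Atp6 and mt-Atp8 were described in footprints or TE after their values were seen. Old symbols were updated through RefSeq synonyms. Alternatives were the pseudocount (0.5 and 5), no filter, centring, a replicate block, leaving out each library, and limma-voom.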

Additional observations from a re-analysis of the deposited data

How the results depend on the processing

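Footprint depth, 3.20-fold apart between libraries, and 2 libraries per group limit what could be detected. Footprint replicates also agreed less in the KO-labelled group (r = 0.782 over 6387 genes) than in WT (0.94). In RNA the replicates correlated at 0.996 and 0.997. In footprints and in TE 0 F1 genes passed limma under all alternatives run. In RNA the count of 3, beside 60.7% of all genes, became 1 without the filter on low values (38.2% of all genes), and ranged from 1 to 4 when each library was left out; without WT replicate 1 (45%), and without WT replicate 2 (41.9%), Atp5e alone passed, and without KO replicate 1 (61.2%) Atp5a1 was called too. Limma-voom on recovered input reads, tried after seeing the data, called 4 RNAs and 60.6% of all genes, Atp5a1 among them (limma adjusted p = 0.0288).

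When each library was left out in turn, the F1 median ranged from -0.719 to 0.205 in footprints, from -0.0418 to 0.0444 in RNA and from -1 to 0.0495 in TE, so its sign rested on single libraries. The Atp5b footprint difference ranged from 0.538 to 1.02 and that of Atp5e from -1.10 to -0.382, and in TE from 0.819 to 1.20 and from -1.87 to -1.25. Signs turned for Atp5c1, whose footprint and TE differences ranged from -1.04 and -1.08 upwards, and for Atp5d, whose footprint difference ranged from -0.72 upwards. Without KO replicate 1, Atp5c1 was at 0.00768 in footprints, -0.0418 in RNA and 0.0495 in TE, and Atp5d at 0.0802 in footprints. Without WT replicate 1 the Atp5c1 RNA difference was -0.00918, and with limma-voom -0.0387; without WT replicate 2 the Atp5d footprint difference was 0.205. For these the cause was not tested.

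Samples of the 2 groups share replicate numbers only: the deviations of same-numbered libraries correlated with r = 0.0224 in footprints, -0.335 in RNA and 0.0082 in TE over 6387 genes. With the replicate number as a block, 0 F1 genes passed in footprints, 2 in RNA and 0 in TE, the Atp5b RNA call being lost (limma adjusted p = 0.0724). Over all genes 54.5% passed in RNA, and the footprint calls went from 66 to 32. At an unadjusted limma p under 0.05 the block gave Atp5e in footprints (0.0372) and lost Atp5b in TE (0.0525).

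Over all genes the 66 footprint calls became 108 with a pseudocount of 5, 0 without the filter (1674 at an unadjusted p under 0.05), 0 without WT replicate 1 (389 unadjusted) or WT replicate 2 (421 unadjusted), 327 without KO replicate 1 and 1085 without KO replicate 2. The 0 TE calls (830 unadjusted) became 79 with the interaction term, 53 with the limma-voom interaction tried after seeing the data, 1 with a pseudocount of 5, 148 without KO replicate 1 and 698 without KO replicate 2. The 3880 RNA calls became 6286 without the filter, with 16442 genes fitted. In the limma-voom interaction the limma adjusted p was 0.0837 for Atp5a1, 0.0686 for Atp5b and 0.106 for Atp5e. Limma-voom moved the median footprint difference of all genes from -0.134 to 0.0485, with Atp5b at 0.944, Atp5a1 at 0.442 and Atp5e at -0.568; at an unadjusted p under 0.05 it called the first 2 of these in footprints. Pseudocounts of 0.5 and 5 and centring changed no F1 call at the adjusted threshold and no F1 direction.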
